A study of Mus musculus with 12 samples.

Results

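The gene set described here holds 10 genes that respond to signalling through the kinase ERK: the ERK phosphatases Dusp4 and Dusp6, the Sprouty genes Spry1, Spry2 and Spry4, the Spred genes Spred1 and Spred2, and the Etv transcription factors Etv1, Etv4 and Etv5. They were chosen by name from a table of 47729 genes, and all 10 were found in it. All 10 passed the filter on low values, as did 13981 genes in all. That filter asked for a minimum of 1 FPKM (fragments per exon kilobase, corrected for library depth) in 2 or more libraries, and Dusp4 passed it through its induced libraries.

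E14Tg2a, a 129/Ola line of mouse embryonic stem cells, was the source of all libraries. The cells were either wild type (WT) or delta 0.7, here called delta, which lack a regulatory region of Tcf15 on both alleles. Tcf15 encodes a basic helix-loop-helix transcription factor. Both genotypes were sampled at 0 h, in serum-free N2B27 with 2i and LIF, and after 12 h and 24 h in N2B27 to which bFGF, Activin and KOSR were added, on fibronectin, conditions that lead naive cells towards epiblast-like cells. Each of the 6 groups had 2 libraries, and the labels do not say whether these were separate cultures, so p-values measure only the spread between these libraries, which may be technical. A single clone is named for delta, so genotype and clone cannot be told apart.

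FGF binds its receptors and, through RAS and MEK, activates ERK, which phosphorylates transcription factors and raises a set of early and delayed response genes. Some products of these genes act back on the pathway: DUSP phosphatases remove phosphate from ERK, and Sprouty and Spred proteins restrain the steps above it. The medium of naive cells, 2i, contains an inhibitor of MEK, and the induction medium replaces it with FGF. Etv1, Etv4 and Etv5 form the PEA3 subfamily of ETS transcription factors and are widely used as readouts of FGF signalling.

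Library depth, recovered from the FPKM steps, was 9740851 to 17571255 reads. Tcf15 checked the labels: in replicates 1 and 2 it stood at 57.1 and 28.8 FPKM in WT at 12 h and at 1.06 and 1.04 FPKM in delta. At 0 h its values were 9.16 and 3.45 FPKM in WT and 2.16 and 1.05 FPKM in delta. All 6 pluripotency markers examined, among them Pou5f1 and Sox2, were expressed, with a summed level of 1081 to 1872 FPKM. Of 10 primitive endoderm markers 8 were below 1 FPKM in every library, Gata4, Gata6 and Sox17 among them, and Lama1, which was not, reached 28.9 and 39.9 FPKM in the replicate 2 libraries of WT and delta at 0 h. The summed level of 10 fibroblast markers was 22.0 to 49.4 FPKM in the 3 replicate 1 libraries of WT and 2.52 to 7.25 FPKM in the other 9. Reads of ribosomal protein genes amounted to 10.5% in replicate 1 of WT at 0 h and 12.4% in replicate 1 of delta at 0 h, and to 5.33% to 6.94% elsewhere. Of 7 trophoblast markers 2 were below 1 FPKM in every library, with a summed level of 24.9 to 51.9 FPKM, and of 6 neural markers 3 were, with a summed level of 13.0 to 48.3 FPKM. Within these sums some markers moved with time in both genotypes: from 0 to 24 h, Nanog went from 255 to 417 FPKM down to 31.1 to 68.5 FPKM, Cdx2 from 2.47 to 8.39 FPKM down to at most 0.345 FPKM, and Tfap2c from 10.9 to 18.5 FPKM down to at most 0.736 FPKM, while Krt18 went from 1.43 to 3.38 FPKM up to 7.31 to 18.6 FPKM. Their part in the members' changes was not tested. In bulk libraries, fewer expressing cells and less RNA per cell cannot be told apart.

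Dusp4, Dusp6, Spry4, Etv1 and Etv4 rose in both genotypes by 12 h and were still raised at 24 h. Spred2 and Etv5 were higher at both later times without passing the test, Spry1 passed it in WT at 24 h and Spred1 in delta at 12 h, and Spry2 was lower in its later groups without passing it. Calls required an adjusted p below 0.05 in limma, with Benjamini-Hochberg adjustment over the 13981 genes of a contrast, and all changes below are differences of log2(FPKM + 1) with the standard error (SE) of that fit. In WT, 5 of 10 genes rose from 0 to 12 h, where 2.13% of all genes rose, and 6 of 10 rose from 0 to 24 h, where 5.27% of all genes rose. In delta the counts were 6 of 10 from 0 to 12 h, beside 3.55% of all genes, and 5 of 10 from 0 to 24 h, beside 7.58% of all genes. None of the 10 genes fell in these 4 comparisons, in which 1.9% and 4.94% of all genes fell in WT and 3.45% and 7.8% in delta, shares at which under 1 of 10 genes would be called. Without the 3 replicate 1 libraries of WT, which carry the raised fibroblast markers, 0 of 10 genes were called in WT at 12 h and 1 (Dusp4) at 24 h. That fit left 1 WT library at each time, with the spread taken from the delta groups, and WT calls over all genes dropped too. Loss of replicates and removal of the raised markers cannot be told apart there. The WT changes at 12 h were of similar size without these libraries for Dusp4 (3.17), Dusp6 (2.47) and Etv1 (1.87) and smaller for Spry4 (2.13) and Etv4 (2.39). The median change over the 10 genes was 1.39 at 12 h and 1.43 at 24 h in WT and 1.74 and 1.44 in delta, while the median over all genes was -0.02, -0.03, -0.03 and -0.05.

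**Figure D1:**
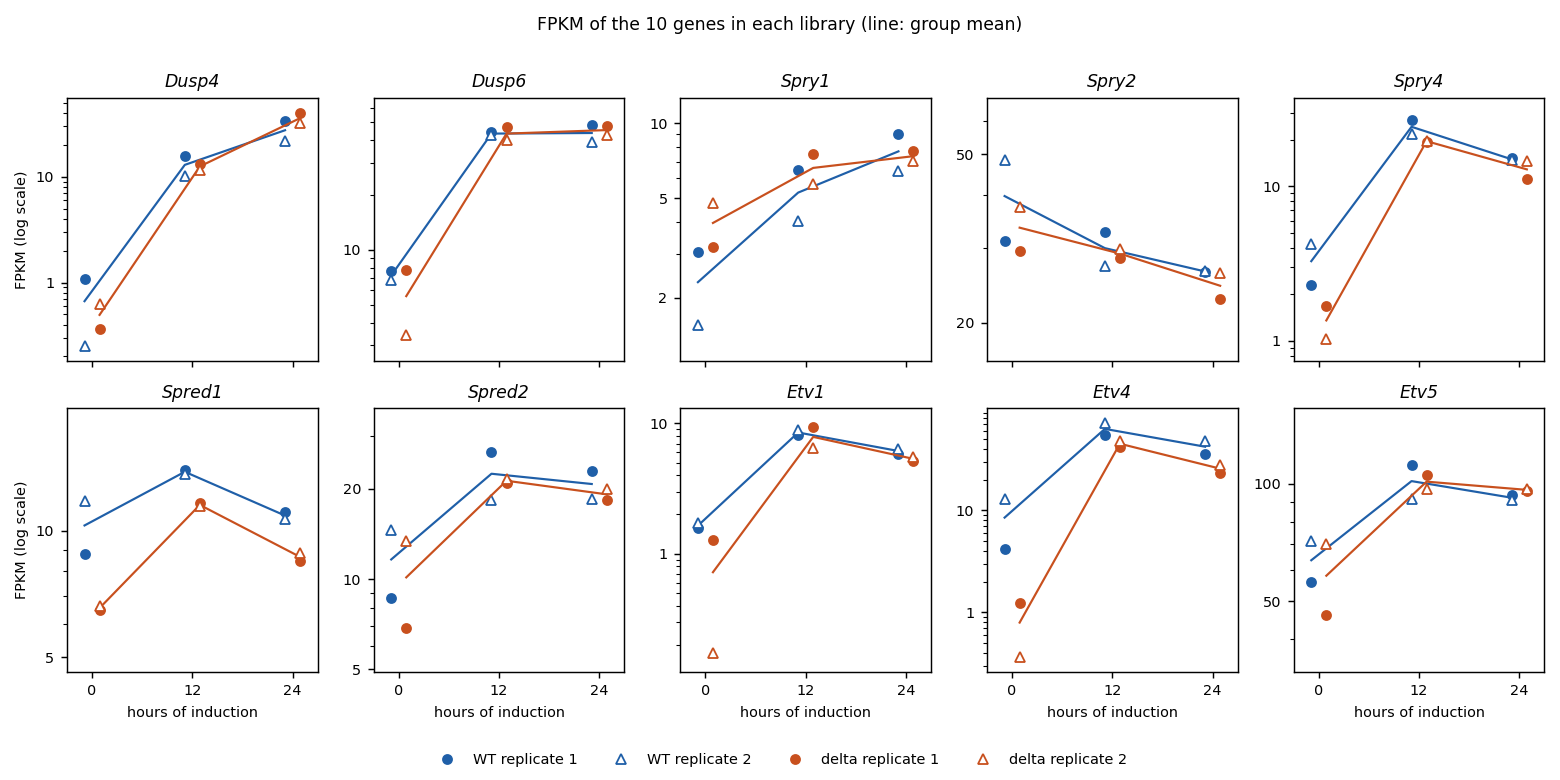
FPKM on a log axis against hours of induction for each of the 10 genes, with a symbol for every library and lines through the group means of WT and delta. Dusp4 stays at or below 1.08 FPKM in all 4 libraries at 0 h and reaches 21.7 to 39.7 FPKM at 24 h. The group means of Spry2 are highest at 0 h, with libraries that overlap those at 12 h. Etv4 separates the genotypes at all 3 times, as do Spry4 and Spred1.

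Dusp4 encodes a nuclear phosphatase of ERK and related kinases. Its values in replicates 1 and 2 of WT were 1.08 and 0.252 FPKM at 0 h, 15.7 and 10.2 FPKM at 12 h, and 33.3 and 21.7 FPKM at 24 h. In delta they were 0.366 and 0.623 FPKM, then 13.3 and 11.7 FPKM, then 39.7 and 31.9 FPKM. The 3 times did not overlap in either genotype, and both genotypes were near the floor at 0 h, with 9 to 30 reads per library. The rise from 0 to 24 h was 4.11 ± 0.31 (SE, adjusted p = 0.000158, limma) in WT and 4.62 ± 0.31 (adjusted p = 5.14e-05, limma) in delta, and in delta it was the fifth largest of the 13981 genes. Group means stood 41.3-fold and 72.3-fold above 0 h, on few reads at 0 h.

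From 12 to 24 h Dusp4 was the member with the largest increase, at 1.03 ± 0.31 in WT (adjusted p = 0.294, limma) and 1.44 ± 0.31 in delta (adjusted p = 0.0695, limma). Neither passed the threshold, and none of the 10 genes was called in this interval, where 0.408% of all genes changed in WT and 1.36% in delta. At an unadjusted p under 0.05, limma listed 2 of the 10 genes in each genotype, Dusp4 and Spry4, beside 7.8% of all genes in WT and 9.72% in delta. With the replicate number as a block, Dusp4 was called in delta (adjusted p = 0.0195, limma; 0.0195 to 0.500 over all alternatives).

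Dusp6 encodes the cytoplasmic phosphatase that is specific for ERK. In WT it was measured at 7.66 and 6.84 FPKM at 0 h, 44.3 and 42.4 FPKM at 12 h, and 48.5 and 38.8 FPKM at 24 h. In delta the values were 7.74 and 3.44 FPKM, 46.9 and 39.8 FPKM, and 47.9 and 42.7 FPKM. Every induced library stood above every library at 0 h, and the 12 h and 24 h libraries overlapped in both genotypes. The change from 0 to 12 h was 2.43 ± 0.29 (adjusted p = 0.00255, limma) in WT and 2.83 ± 0.29 (adjusted p = 0.000963, limma) in delta. The change from 12 to 24 h was 0.00 ± 0.29 in WT (95% interval -0.65 to 0.65) and 0.07 ± 0.29 in delta (95% interval -0.58 to 0.71).

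The balance of Dusp4 and Dusp6 therefore moved with time. Dusp9, another ERK phosphatase gene described below, is not in their sum. Dusp4 made up 3.56% to 15.3% of the summed FPKM of Dusp4 and Dusp6 in the 4 libraries at 0 h, 19.5% to 26.1% at 12 h, and 35.9% to 45.3% at 24 h. These ranges do not overlap, and each holds 2 libraries of each genotype.

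The Sprouty genes encode membrane-associated antagonists of receptor tyrosine kinase signalling, and the 3 measured here took separate courses. Spry4 was at 2.30 and 4.25 FPKM in WT at 0 h, 26.7 and 21.9 FPKM at 12 h, and 15.2 and 14.7 FPKM at 24 h. In delta it was at 1.68 and 1.03 FPKM, 19.4 and 19.8 FPKM, and 11.1 and 14.7 FPKM. All libraries at 12 h lay above those at 24 h of the same genotype, which in turn lay above those at 0 h. The rise from 0 to 12 h was 2.60 ± 0.26 (adjusted p = 0.00118, limma) in WT and 3.15 ± 0.26 (adjusted p = 0.000373, limma) in delta, and the rises to 24 h were 1.94 ± 0.26 and 2.56 ± 0.26.

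Spry1 was low throughout. Its WT values were 3.06 and 1.56 FPKM at 0 h, 6.47 and 4.07 FPKM at 12 h, and 9.00 and 6.40 FPKM at 24 h. Its delta values were 3.18 and 4.78 FPKM, 7.51 and 5.72 FPKM, and 7.71 and 7.03 FPKM. The libraries at 0 h were the lowest in both genotypes. Spry1 rose in WT from 0 to 24 h by 1.42 ± 0.30 (adjusted p = 0.0183, limma). The adjusted p was 0.0954 without WT 0 h replicate 2 and 0.144 without WT 24 h replicate 1, in the same limma fit, and 0.00820 to 0.144 over all alternatives. In delta the difference was 0.77 ± 0.30 (adjusted p = 0.125, limma), and the genotypes' changes differed by -0.65 ± 0.43 (adjusted p = 1, limma).

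Spry2, the Sprouty gene with the highest level at each time, was at 31.2 and 48.5 FPKM in WT at 0 h, 32.8 and 27.2 FPKM at 12 h, and 26.4 and 26.5 FPKM at 24 h. In delta it was at 29.6 and 37.6 FPKM, 28.5 and 29.9 FPKM, and 22.7 and 26.2 FPKM. Its libraries at 24 h were below those at 0 h and 12 h in both genotypes, while those at 0 h and 12 h overlapped. The differences from 0 to 24 h were -0.54 ± 0.23 in WT (adjusted p = 0.189, limma) and -0.43 ± 0.23 in delta (adjusted p = 0.236, limma). Without the replicate 1 libraries of 0 h, an alternative added after the data were seen, they were -0.85 and -0.60. These rest on the remaining library of each genotype at 0 h. Over all alternatives the adjusted p was 0.00872 to 0.519 in WT and 0.0226 to 0.546 in delta.

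Spry2 made up 85.3% to 89.3% of the summed Sprouty FPKM at 0 h, 49.7% to 53.9% at 12 h, and 52.2% to 55.7% at 24 h. Spry4 took 2.37% to 7.82%, 35.1% to 41.2% and 26.7% to 30.9% at the same times. The sum itself was 34.4 to 54.3 FPKM at 0 h, 53.2 to 66.0 FPKM at 12 h, and 41.5 to 50.6 FPKM at 24 h, so the ranges at 0 h and 24 h overlapped although the composition differed.

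**Figure D2:**
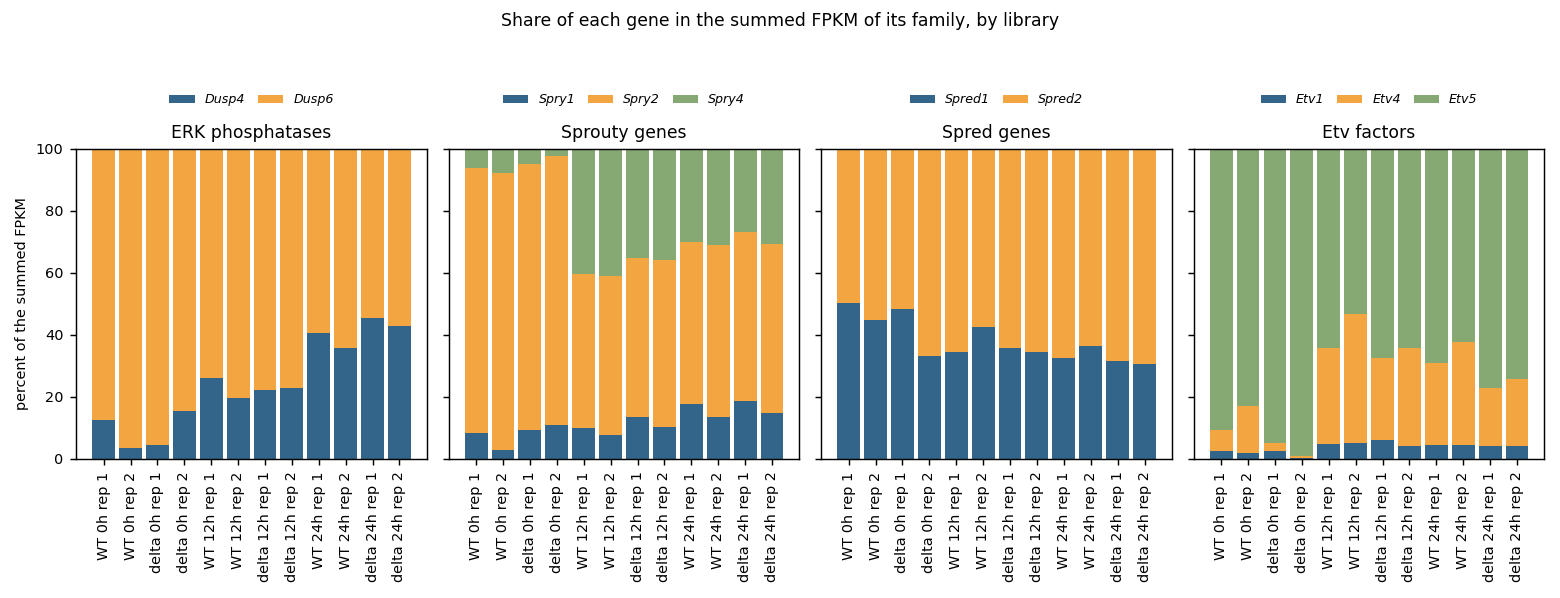
Percent of the summed FPKM of each family taken by each gene, with 1 stacked bar for each of the 12 libraries in the order of time. Dusp4 grows to 35.9% to 45.3% of the sum of Dusp4 and Dusp6 at 24 h. Spry4 is largest at 12 h (35.1% to 41.2%), and Etv5 takes at least 83.1% of the Etv sum at 0 h.

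The promoter sequences of Dusp6 and Spry2 are shown because Dusp6 rose in all 4 comparisons with 0 h and Spry2 was called in none of them. They are the 250 bases before the start site, read 5′ to 3′ on the strand of the gene, from RefSeq on GRCm38.p6, and capitals mark CpG dinucleotides. The Dusp6 stretch lies at chr10:99262981-99263230 (plus strand) and the Spry2 stretch at chr14:105896820-105897069 (minus strand).
Dusp6: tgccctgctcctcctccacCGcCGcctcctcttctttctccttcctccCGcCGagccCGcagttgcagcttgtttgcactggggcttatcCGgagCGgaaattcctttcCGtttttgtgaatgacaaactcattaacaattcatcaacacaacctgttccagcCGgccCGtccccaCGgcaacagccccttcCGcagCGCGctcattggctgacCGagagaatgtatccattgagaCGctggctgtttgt
Spry2: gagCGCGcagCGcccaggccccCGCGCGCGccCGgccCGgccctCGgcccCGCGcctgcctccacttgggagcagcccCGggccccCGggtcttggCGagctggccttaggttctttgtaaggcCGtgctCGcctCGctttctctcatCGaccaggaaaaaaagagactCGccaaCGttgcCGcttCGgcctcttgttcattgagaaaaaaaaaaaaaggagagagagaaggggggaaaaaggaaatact
The Dusp6 stretch holds 16 CpG dinucleotides and the Spry2 stretch 23.

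RefSeq gave 9 promoter windows of 300 bases, from 250 before to 50 after a start site, for 7 of the 10 genes, among 32851 windows in all. Dusp4, Spry4 and Etv4 had no entry. The 9 windows held 3 to 40 CpG dinucleotides, beside a median of 7 over all windows, and their GC content was 44.0% to 74.0%, beside a median of 52.7%. Motifs were searched on both strands, and no matches overlapped in the windows of these genes. The ETS motif CCGGAA was found in 1 of the 9 windows, that of Spry2, starting 34 bases after the start site, and in 14.9% of all windows. The Capicua octamers TGAATGAA and TGAATGGA (1.30% and 1.21% of all windows), the AP-1 motif TGAGTCA (5.20%) and the CRE motif TGACGTCA (1.79%) were not in these 9 windows.

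The Spred genes encode membrane proteins that hold RAS signalling down through the RAS GTPase activating protein neurofibromin. Spred1 was at 8.82 and 11.7 FPKM in WT at 0 h, 13.9 and 13.6 FPKM at 12 h, and 11.0 and 10.7 FPKM at 24 h. In delta it was at 6.46 and 6.62 FPKM, 11.6 and 11.4 FPKM, and 8.48 and 8.83 FPKM. Replicates at 12 h and 24 h lay close together, and each genotype was highest at 12 h. Spred1 rose in delta from 0 to 12 h by 0.73 ± 0.17 (adjusted p = 0.0330, limma), a call held in 11 of 21 alternatives (adjusted p 0.00754 to 0.219). In WT the difference was 0.40 ± 0.17 (adjusted p = 0.266, limma), and the 2 changes differed by 0.33 ± 0.24 (adjusted p = 1, limma).

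Spred2 was at 8.68 and 14.6 FPKM in WT at 0 h, 26.5 and 18.4 FPKM at 12 h, and 23.0 and 18.5 FPKM at 24 h. In delta it was at 6.88 and 13.4 FPKM, 20.9 and 21.6 FPKM, and 18.4 and 19.9 FPKM. All induced libraries were above all libraries at 0 h, but the replicates at 0 h were far apart, with replicate 1 the lower in both genotypes. The changes from 0 to 12 h were 0.91 ± 0.33 in WT (adjusted p = 0.190, limma) and 1.06 ± 0.33 in delta (adjusted p = 0.0903, limma). Without delta 0 h replicate 2 the adjusted p of the latter was 0.0142 (0.0142 to 0.327 over all alternatives, limma).

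Among the Etv factors, Etv4 had the widest range of values. In WT it was at 4.17 and 12.8 FPKM at 0 h, 54.2 and 71.1 FPKM at 12 h, and 35.7 and 48.1 FPKM at 24 h. In delta it was at 1.22 and 0.367 FPKM, 41.8 and 47.9 FPKM, and 23.1 and 28.1 FPKM. All libraries at 12 h exceeded those at 24 h of the same genotype, and those at 0 h were the lowest. The rise from 0 to 12 h was 2.90 ± 0.42 (adjusted p = 0.00670, limma) in WT and 4.71 ± 0.42 (adjusted p = 0.000607, limma) in delta, where it was the largest of all 13981 genes. The corresponding rises to 24 h were 2.33 ± 0.42 (adjusted p = 0.00857, limma) and 3.92 ± 0.42 (adjusted p = 0.000466, limma). In WT the adjusted p became 0.0543 at 12 h without WT 12 h replicate 2 and 0.0676 at 24 h without WT 24 h replicate 2, and over all alternatives it was 0.00334 to 0.169 and 0.00245 to 0.119.

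Etv1 was at 1.58 and 1.71 FPKM in WT at 0 h, 8.15 and 8.88 FPKM at 12 h, and 5.87 and 6.41 FPKM at 24 h. In delta it was at 1.27 and 0.174 FPKM, 9.32 and 6.44 FPKM, and 5.18 and 5.50 FPKM. The order of the times was that of Etv4, with no overlap in either genotype. The changes from 0 to 12 h were 1.85 ± 0.29 (adjusted p = 0.00905, limma) and 2.42 ± 0.29 (adjusted p = 0.00204, limma) in WT and delta. The WT call was lost with a pseudocount of 0.1 (adjusted p = 0.0696, limma; 0.00126 to 0.373 over all alternatives) and without any 1 of 3 WT libraries (0 h replicate 1, 12 h replicates 1 and 2). From 0 to 24 h the change was 1.43 ± 0.29 (adjusted p = 0.0146, limma) in WT, lost with that pseudocount and without any 1 of the 4 WT libraries compared, and 1.96 ± 0.29 (adjusted p = 0.00248, limma) in delta.

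Etv5 had the highest mean level of the 10 genes at each time, 60.9 FPKM over the 4 libraries at 0 h, 101 FPKM at 12 h and 94.3 FPKM at 24 h. Its WT values were 56.0 and 71.2 FPKM, then 111.7 and 91.6 FPKM, then 93.5 and 90.8 FPKM. Its delta values were 46.1 and 70.1 FPKM, then 106 and 97.2 FPKM, then 95.9 and 97.2 FPKM. All libraries at 0 h were below the later ones, and the later times overlapped. The changes from 0 to 12 h were 0.67 ± 0.23 in WT (adjusted p = 0.168, limma) and 0.82 ± 0.23 in delta (adjusted p = 0.0674, limma), and from 0 to 24 h 0.54 ± 0.23 (adjusted p = 0.191, limma) and 0.75 ± 0.23 (adjusted p = 0.0568, limma). With the replicate number as a block the delta changes were called, with adjusted p = 0.0497 and 0.0448 in limma (0.0110 to 0.338 and 0.00723 to 0.240 over all alternatives).

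Etv5 made up 83.1% to 99.2% of the summed FPKM of the 3 Etv genes at 0 h, 53.4% to 67.4% at 12 h, and 62.5% to 77.2% at 24 h. Etv4 took 0.519% to 14.9%, 26.7% to 41.4% and 18.6% to 33.1%. The summed level was 48.5 to 85.7 FPKM at 0 h and 151 to 174 FPKM at 12 h.

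**Figure D3:**
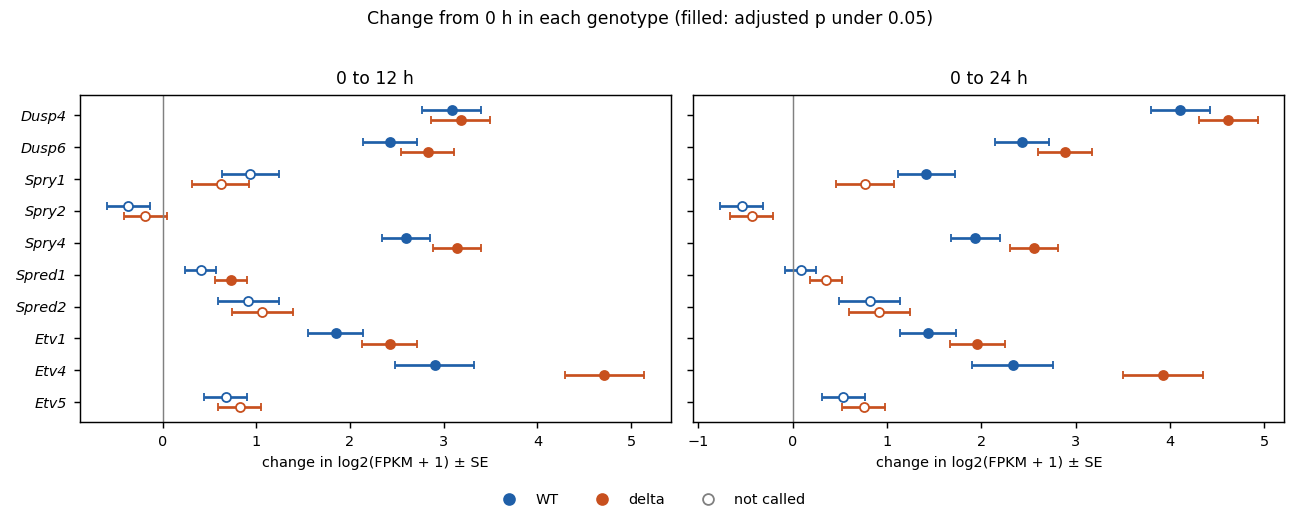
Change in log2(FPKM + 1) from 0 h to 12 h (left) and 24 h (right) in WT and delta, as points with bars of 1 SE. Filled points passed an adjusted p under 0.05, which Dusp4, Dusp6, Spry4, Etv1 and Etv4 did in all 4 comparisons, and Etv4 in delta at 12 h is the largest change at 4.71.

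The order of levels at 0 h was Etv5, Spry2, Spred2, Spred1, Dusp6, Etv4, Spry1, Spry4, Etv1 and Dusp4, by mean FPKM over 4 libraries. Only Spry2 and Spred2 were neighbours whose ranges did not overlap. At 12 h Etv4 came second at 53.8 FPKM and Dusp6 next at 43.3 FPKM, with overlapping ranges, and Spry1 was last at 5.94 FPKM. At 24 h Dusp4 had reached the fourth place at 31.6 FPKM, its range overlapping those of Etv4 above and Spry2 below it, and Etv1 was last at 5.74 FPKM.

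After 12 h the members parted. In both genotypes every 12 h library of Spry2, Spry4, Spred1, Etv1 and Etv4 was above every 24 h library, which held for 16.9% of all genes. Group means at 24 h were 66.9% (WT) and 57.0% (delta) of those at 12 h for Etv4, 61.5% and 65.7% for Spry4, and 72.1% and 67.8% for Etv1. None of these decreases passed the test from 12 to 24 h. Their sizes in delta were -0.79 ± 0.42 for Etv4, -0.58 ± 0.26 for Spry4 and -0.47 ± 0.29 for Etv1, with adjusted p = 0.676, 0.506 and 0.784 (limma).

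No member passed the test between genotypes. Tcf15 itself did not pass it at 24 h, at -4.06 ± 0.47 (adjusted p = 0.0832, limma). Its call at 12 h (adjusted p = 0.0473, limma) held in 5 of 21 alternatives, so a lack of calls does not show equal levels. At each time, averaged over times, and in the difference of the changes, none of the 10 genes was called between delta and WT in limma, nor with voom weights on recovered reads. Of all genes, 0.00715% were called at 0 h, 0.0143% at 12 h, 0.00715% at 24 h, 0.0143% averaged over times, and 0.0% in the difference of either change. At an unadjusted p under 0.05, limma listed 4 of the 10 genes at 0 h, 0 at 12 h, 0 at 24 h, 3 averaged over times, and 1 (Etv4) in each difference of changes. Of all genes, that threshold listed 0.887% at 12 h, 1.53% at 24 h, and 0.615% and 0.987% in the differences of the changes to 12 h and 24 h. All 4 at 0 h (Spry4, Spred1, Etv1 and Etv4) were lower in delta, beside 0.78% of all genes, and the 3 averaged over times (Spry4, Spred1 and Etv4) were lower too, beside 2.08% of all genes.

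**Figure D4:**
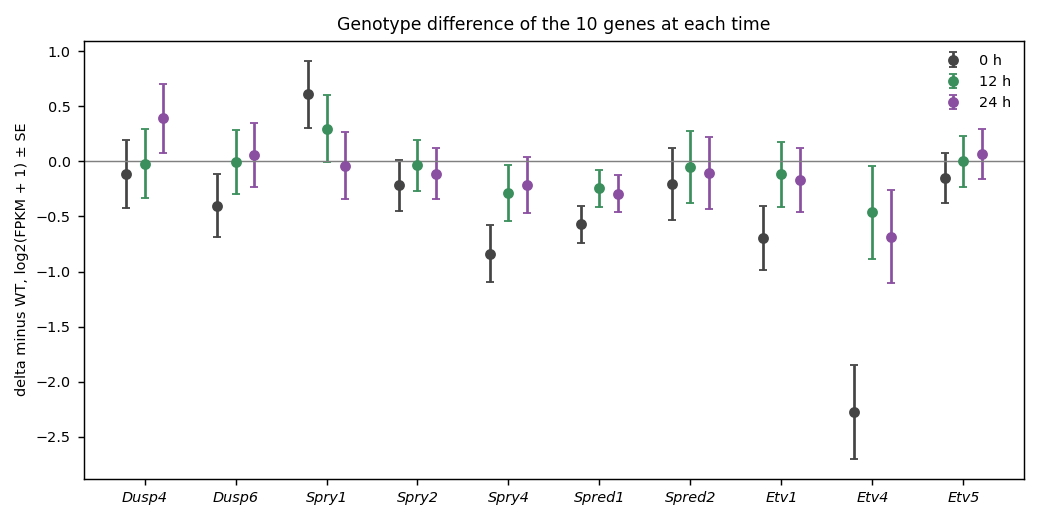
Difference of delta minus WT in log2(FPKM + 1) for each gene at 0, 12 and 24 h, as points with bars of 1 SE. Etv4 at 0 h, at -2.28, lies farthest from 0. Spry2, Spry4, Spred1, Spred2, Etv1 and Etv4 are below 0 at all 3 times.

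Etv4 had the lowest delta minus WT difference of all 13981 genes at 0 h, at -2.28 ± 0.42 (95% interval -3.23 to -1.32, unadjusted p = 0.000438, adjusted p = 1, limma). The values behind it rest on 131 and 517 reads in WT and 34 and 20 reads in delta, and the delta mean was 9.37% of the WT mean. At 12 h and 24 h the delta means were 71.6% and 61.0% of WT, with differences of -0.46 ± 0.42 and -0.68 ± 0.42. Delta was lower in 6 of 6 pairs of the same replicate number and time, and the genotypes did not overlap at any time. Averaged over times the difference was -1.14 ± 0.25 (adjusted p = 0.878, limma).

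The replicate libraries at 0 h were far apart for Etv4, with WT replicate 1 at 4.17 FPKM beside 12.8 FPKM and delta replicate 1 at 1.22 FPKM beside 0.367 FPKM. Both replicate 1 libraries also had the raised ribosomal protein share given above. Reads of rRNA-like genes were 8.06% in delta replicate 1 at 0 h, beside a median of 0.790% over the 12 libraries. Mitochondrial reads were 0.447% to 0.647% in all replicate 1 libraries and 1.80% to 2.87% in all replicate 2 libraries. An alternative added after the data were seen left out the 0 h replicate 1 libraries of both genotypes. The Etv4 difference was then -3.33 at 0 h and -1.49 averaged over times. In none of the other 20 alternatives was Etv4 called between genotypes. The remaining library of each genotype at 0 h is then assumed to vary like the other groups. Over all genes the replicates at 0 h differed more. The SD of their log2 difference was 0.66 in WT and 0.83 in delta, beside 0.31 to 0.42 in the later groups. The part of the left-out libraries' composition in the result was not tested. Etv4 was lower in WT replicate 1, which had the raised fibroblast markers, than in WT replicate 2 at all 3 times. Delta replicate 1, without those markers, was the lower at 12 h and 24 h and the higher at 0 h. The part of these markers in the Etv4 values was not tested. The change from 0 to 12 h was larger in delta by 1.81 ± 0.60 (unadjusted p = 0.0144, adjusted p = 1, limma), and that to 24 h by 1.59 ± 0.60 (unadjusted p = 0.0262, adjusted p = 1, limma).

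Spry4 and Spred1 were also lower in delta in 6 of 6 pairs. With Etv4 that makes 3 of 10 genes, beside 7.01% of all genes lower in 6 of 6 pairs. In these 3 genes the genotypes did not overlap at any time, a trait that was not counted over all genes. Spry4 in delta was at 41.3% of the WT mean at 0 h, 80.7% at 12 h and 86.1% at 24 h, and its difference averaged over times was -0.45 ± 0.15 (95% interval -0.78 to -0.11, adjusted p = 1, limma). Spred1 was at 63.6%, 83.4% and 79.7% of the WT mean, with an averaged difference of -0.37 ± 0.10 (95% interval -0.59 to -0.15, adjusted p = 1, limma). Etv1 and Spry2 were each lower in delta in 5 of 6 pairs, a trait that was also not counted over all genes. The Etv1 difference was -0.69 ± 0.29 at 0 h, where delta replicate 2 had 18 reads.

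For Dusp4, Dusp6, Spry2, Spred2 and Etv5 the data bound the averaged genotype difference rather than show one. The averaged difference was 0.08 for Dusp4 (95% interval -0.32 to 0.49), -0.12 for Dusp6 (-0.49 to 0.26) and -0.03 for Etv5 (-0.33 to 0.27). It was -0.12 for both Spry2 (-0.42 to 0.18) and Spred2 (-0.54 to 0.30). Spry1 was the member with a higher delta mean at 0 h, at 173% of WT and with both delta libraries above both WT libraries, a difference of 0.61 ± 0.30 that did not pass the test (adjusted p = 1, limma).

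Other genes of the pathway were counted from 4 lists. Of 19 measured genes of the RAS to ERK cascade and its adaptors (20 listed), 2 rose and 0 fell from 0 to 24 h in each genotype, where 5.27% (WT) and 7.58% (delta) of all genes rose: the kinase gene Braf, by 1.29 in WT and 1.18 in delta, and the docking protein gene Gab1, by 0.86 and 1.16. The median over that list in WT at 24 h was 0.07. Map2k1 and Ptpn11 changed by -0.43 and 0.47 in WT without passing (adjusted p = 0.127 and 0.242, limma). Grb2, an adaptor gene of that list, had an averaged genotype difference of -0.17 (adjusted p = 1, limma).

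Of 13 measured genes among other DUSP phosphatases and feedback genes (16 listed), 2 rose and 1 fell from 0 to 24 h in WT, beside 5.27% and 4.94% of all genes. Dusp9, another ERK phosphatase gene, rose by 2.68 ± 0.22 (adjusted p = 0.000164, limma) from 3.18 ± 0.493 to 25.9 ± 5.36 FPKM (SD, n = 2), Dusp5 rose by 1.47 and Dusp14 fell by 1.78. In delta, Dusp9 rose by 2.83, Spred3 rose by 1.17 and Dusp14 fell by 1.77, with Spred3 named after its values were seen. Of all genes, 7.58% rose and 7.8% fell in delta. Dusp9 was also called from 12 to 24 h, at 1.29 in WT and 1.55 in delta (adjusted p = 0.0497 and 0.0126, limma; in WT not with voom weights), and so increased over the interval in which Etv4 and Spry4 were lower. Errfi1 was at 0.81 in WT without passing (adjusted p = 0.0847, limma). For genotype, Dusp14 and Dusp9 had averaged differences of -0.78 and -0.34, neither of them called.

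Of 13 measured genes among other ETS factors and Capicua with its partners (16 listed), none was called in WT from 0 to 24 h in limma, and 0 with voom weights. At an unadjusted p under 0.05, limma listed 2 of these 13, beside 24.1% of all genes. In delta 1 of the 13, Elk3, fell, by 0.78 (adjusted p = 0.0474, limma), beside 7.8% of all genes. The median of that list in WT was -0.09, whereas Etv1 and Etv4 of the same protein family rose by 1.43 and 2.33. In WT the differences were -0.57 for Elk3, -0.48 for Elf2, -0.38 for Etv6 and -0.39 for Erf, and for genotype -0.51 for Ets2 and 0.44 for Atxn1l, none of them called.

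Of 16 other ERK-induced genes, 4 rose and 1 fell from 0 to 24 h in WT, beside 5.27% and 4.94% of all genes. Those that rose were Myc (2.48), Phlda1 (1.95), Arc (1.95) and Epha2 (1.19), and these 4 rose in delta as well, by 2.78, 2.62, 1.84 and 1.32. Epha4 fell by 1.77 in WT and 1.96 in delta, and Gdf15 fell by 1.48 in delta. Both were named after their values were seen. The shares of all genes in delta were 7.58% rising and 7.8% falling. Phlda1 and Myc had averaged genotype differences of -0.33 and -0.27, without a call. No gene of the 4 lists was called between genotypes, averaged over times.

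The genes nearest to each member by Pearson correlation of log2(FPKM + 1) over the 12 libraries were sought among kept genes with a mean of at least 5 FPKM. These 12 points share the time course and the libraries, so r is a description only. Dusp4 was nearest to Pcsk1n, Myrf and S1pr2 (r = 0.994, 0.994 and 0.993), and Dusp6 to Dppa2, Utf1 and Myc (0.993, 0.989 and 0.988). Spry4 was nearest to Ext1, Trim44 and Rbpj (0.987, 0.985 and 0.983), Etv4 to Bbs2, Asun and Pigl (0.976, 0.970 and 0.961), and Etv1 to Hspa4, AI846148 and C77370 (0.979, 0.974 and 0.970). Etv5 and Spred2 shared Rfx1 and Taf4a among their nearest 3, with Mcmbp for Etv5 (0.988) and Midn for Spred2 (0.981). For Spry1 they were Aplp1, Sox12 and Kirrel2 (0.977, 0.974 and 0.958), for Spry2 Mark4, Srebf1 and Ngfr (0.953, 0.946 and 0.945), and for Spred1 Tufm, Zbtb45 and Ankrd40 (0.949, 0.937 and 0.935).

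Among the members themselves, Spry4 correlated at 0.98 with Etv1 and 0.97 with Etv4, and Spred2 at 0.98 with Etv5. Over the 8 libraries of 12 h and 24 h alone, Spry4 and Etv4 correlated at 0.82 while Dusp4 and Etv4 correlated at -0.87, where over all 12 libraries Dusp4 and Etv4 correlated at 0.79. The sign thus changed once the 0 h libraries were set aside, with Dusp4 higher and Etv4 lower at 24 h than at 12 h in both genotypes.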

How the data were processed

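Poly(A) RNA of 12 libraries was sequenced, per the labels' protocols. The authors deposited FPKM values. The submitters' processing notes list cutadapt, STAR 2.5.2b, featureCounts 1.5.1, edgeR 3.16.5 and build mm10, without their roles. The strand setting of the counting is not known from these sources, so genes overlapping on opposite strands may share reads. FPKM steps gave whole reads (tolerance 0.01) for 100% of 28657 expressed genes. These reads served for depth, read shares and a voom alternative.

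The 13981 genes that reached 1 FPKM in 2 or more libraries entered 1 limma 3.58.1 fit (R 4.3.3) of log2(FPKM + 1), computed from the deposited values, with 6 group means, no replicate block, and a variance trend, which left 6 residual degrees of freedom and added 3.11 from the prior. Changes of low genes are understated by the pseudocount of 1. P-values are 2-sided, and intervals use the fit's degrees of freedom. All groups share a spread in this fit, while replicates differed more at 0 h than later. P-values of changes from 0 h may therefore be too small. The fit was tested on simulated data. Tables and figures used Python 3.11.15, numpy 2.4.6, pandas 2.3.3 and matplotlib 3.10.9.

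The members, lists and alternatives were chosen with earlier results of these data known. Named genes were all members and, per list, up to 4 genes by adjusted p in WT from 0 to 24 h and up to 2 by genotype, and 3 correlates per member with no predicted symbol. A result that this rule would name is not reported here. Replicate numbers come from the titles. Same-numbered WT and delta libraries deviated together (correlations 0.70, 0.28 and 0.37 at 0, 12 and 24 h), so the numbers were taken to pair them, and a blocked fit was run. Other alternatives were a pseudocount of 0.1 or 5, no filter, median-of-ratios scaling, quantile normalization, voom, and leaving out each library, plus 2 added after the data were seen.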

Additional observations from a re-analysis of the deposited data

How the results depend on the processing

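Over 21 alternatives, 2389 of 2520 log2 differences of the 10 members kept their direction and side of the threshold, 33 lost a call, 22 gained one, 76 uncalled ones changed sign and 0 called ones reversed. Leaving out a library outside a contrast leaves its log2 difference unchanged, so part of the first count was fixed in advance. The calls of Dusp4, Dusp6, Spry4, Etv1 and Etv4 in delta held in all 21.

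Without the 3 WT replicate 1 libraries, which leaves 1 WT library per time, 0 members were called in WT from 0 to 12 h and 1 (Dusp4) from 0 to 24 h; Dusp4, Dusp6, Spry4 and Etv4 then changed by 3.17, 2.47, 2.13 and 2.39 at 12 h. From 12 to 24 h in delta, 1 member (Dusp4) was called with a pseudocount of 5, quantile normalization, the replicate block, or without the 0 h replicate 1 libraries. Without the latter, 1 member (Etv4) was called at 0 h and 1 averaged over times between genotypes. The replicate block changed the calls of Dusp4 from 12 to 24 h and Etv5 in delta, given above, and no other member's. Leaving out 1 library at a time gave 3 to 6 members in WT from 0 to 12 h, 4 to 6 in WT to 24 h, 5 to 8 in delta to 12 h, 5 to 7 in delta to 24 h, and 0 in all other comparisons; the 3 came without WT 12 h replicate 2. The cause of these shifts was not tested.

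Over all genes, calls moved more. Leaving out 1 library gave 130 to 1084 genes in WT from 0 to 12 h (563 with all libraries), 596 to 2458 to 24 h (1427), 173 to 4522 in delta to 12 h (979), 789 to 5080 to 24 h (2151), 1 to 131 in WT from 12 to 24 h (57) and 13 to 317 in delta (190). Without the 0 h replicate 1 libraries the counts were 1169, 2830, 2387, 3906, 335 and 713 in that order, without the 3 WT replicate 1 libraries 3, 177, 450, 1349 and, in delta from 12 to 24 h, 8, and with the replicate block 989, 2091, 1605, 2969, 163 and 350. A pseudocount of 0.1 gave 0 in WT from 12 to 24 h. Without the filter, genotype calls rose from 1, 1 and 2 to 6, 18 and 10 at 0 h, 24 h and averaged. The low reads of Dusp4, Etv1 and Etv4 at 0 h limit their folds.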
